A study of Mus musculus with 6 samples.

Results

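Genes that carry out or restrain the mineralisation of bone matrix were followed in mouse osteoblast cultures with and without verapamil, a drug that blocks calcium entry through L-type channels. They were Alpl, Phospho1, Enpp1, Slc20a1, Slc20a2, Phex, Bglap, Bglap2, Mgp and Ifitm5, taken by symbol from the deposited count table, and all 10 were among its 17491 genes. The cells were differentiated from wildtype mesenchymal stem cells of tibial and femoral marrow, in low-glucose medium with 15% serum, dexamethasone, 5 mM β-glycerophosphate and 50 µg/mL ascorbic acid, and RNA was taken at day 7. Of the 6 libraries, 3 came from control cultures and 3 from verapamil-treated cultures in the same osteogenic medium. The labels give neither the dose of verapamil nor the time of exposure. Whether the replicates are separate cultures or animals is not stated either, so a p-value here speaks only of the spread among these 6 libraries, which may be technical.

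Mineral forms where phosphate meets calcium in the collagen matrix, and inorganic pyrophosphate holds it back. Osteoblasts release phosphate with the phosphatases encoded by Alpl and Phospho1, take it up through the transporters of Slc20a1 and Slc20a2, and make pyrophosphate outside the cell with the enzyme of Enpp1. β-Glycerophosphate in the medium is a substrate of alkaline phosphatase. Phex and the FGF23 hormone system act on phosphate in the whole body. Osteocalcin, encoded by Bglap and Bglap2, and matrix Gla protein, encoded by Mgp, bind calcium through glutamate residues carboxylated with vitamin K, and matrix Gla protein is known as an inhibitor of calcification in cartilage and vessels.

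Of the 10 genes, 8 fell with verapamil and 2, Slc20a2 and Mgp, did not pass the test. Across the table, 16.3% of the 13366 genes tested were lower and 15.4% higher at an adjusted p under 0.05 (quasi-likelihood test of edgeR, Benjamini-Hochberg adjustment over all genes tested), 31.7% in all. The 8 genes stood at 22.3% to 62.7% of their control mean. Each of them was lower in every verapamil library than in every control library, which held for 24.4% of all genes tested. The median log2 fold change of the 10 genes was -0.995, against 0.0077 over all genes tested. The 10 genes were chosen with earlier results of these data known, so their contrast with all genes is a description only. In bulk RNA, fewer cells of a type and less RNA per cell cannot be told apart. The plot of levels by library shows these values on a log axis.

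**Figure D1:**
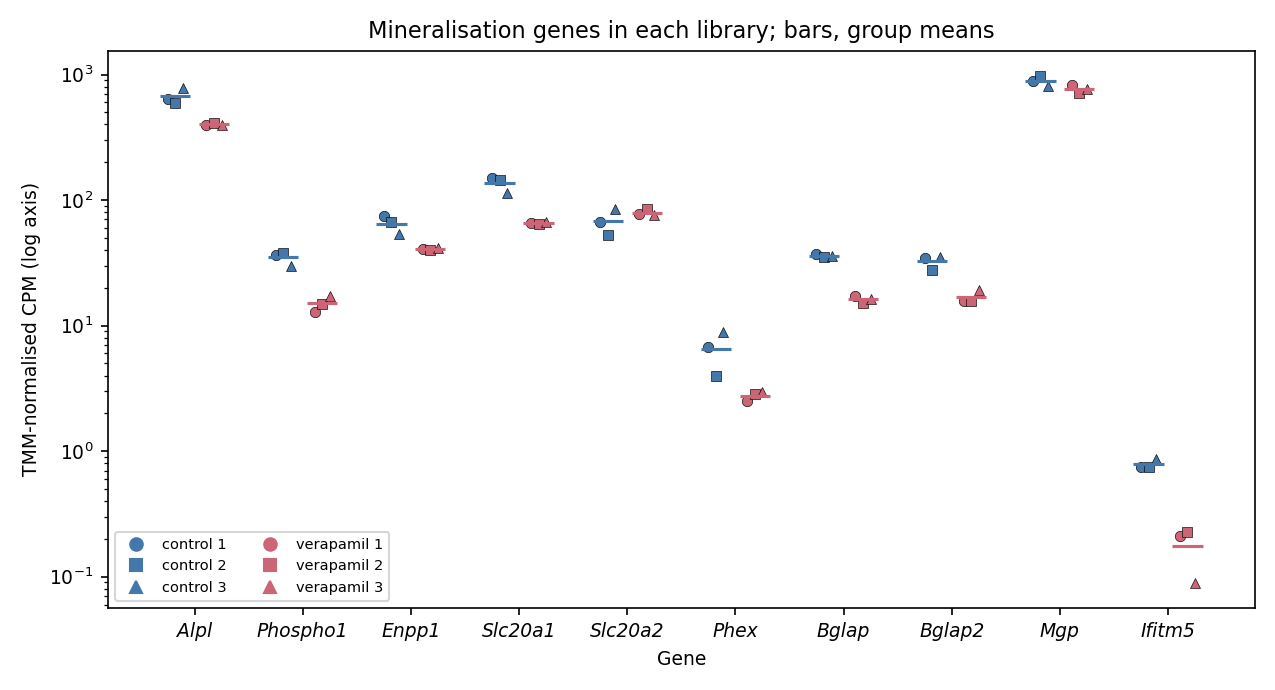
Level of each of the 10 genes in each library, in CPM, counts scaled to library size with TMM factors (log axis); blue points are the 3 control libraries, red points the 3 verapamil libraries, and bars the group means. The red points lie below all blue points in 8 genes and overlap them in Slc20a2 and Mgp.

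The libraries held 18.2 M to 21.7 M estimated counts, and the 10 genes together took 0.180% to 0.196% of them in controls and 0.140% to 0.150% in verapamil libraries. On the first principal component, with 66.2% of the variance, the controls lay at -25.7, -41.1 and -11.2 (replicates 1, 2 and 3) and the verapamil libraries between 21.7 and 29.8, so control replicate 2 stood farthest out. Of the called genes 48.5% were higher, and 63.7% with scaling by library totals alone. That scaling moved the median log2 fold change of all genes by 0.080, and the other scalings moved it less. Markers fixed for osteoblasts fell in 5 of 7 cases, beside 16.3% of all genes tested. They summed to 35830 to 46151 CPM in controls and 14488 to 16840 CPM in verapamil libraries. Col1a1 alone went from a mean of 17067 to 5387 CPM and Col1a2 from 14680.5 to 6034 CPM. Macrophage and monocyte markers rose in 11 of 15 cases, beside 15.4% of all genes tested, and all 15 had counts. Their sums went from 10043 to 12614 CPM to 18324 to 20689 CPM, and Lyz2 alone from a mean of 5536 to 11197 CPM. Chondrocyte markers fell in the 4 cases tested of 6 (279.6 to 662 CPM against 103 to 143 CPM in sum). Acan, too low to be tested, was at 0.329, 0 and 0.322 CPM in controls and at 0 in all verapamil libraries. Osteocyte markers fell in the 3 cases tested of the 5 listed, from sums of 122 to 153 CPM to sums of 43.3 to 45.6 CPM. Among them Dmp1 alone went from a mean of 79.7 to 3.65 CPM, so such sums can rest on few genes. Markers of mesenchymal stem and progenitor cells were mixed, with 3 of 8 lower, 1 higher and 4 not past the test. Their sums went from 2410 to 3413 CPM to 3593 to 4029 CPM, and Cxcl12 alone from a mean of 2119 to 3136 CPM. Adipocyte markers were mixed as well, with 1 lower and 2 higher of 4 tested. The part of these cell types in the results below was not tested.

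Both phosphatases that release phosphate fell. Alpl, the tissue-nonspecific alkaline phosphatase on the osteoblast surface and on matrix vesicles (Entrez 11647, chromosome 4, 137741731 to 137796384 in GRCm38), was at 642, 594 and 787 CPM in control replicates 1, 2 and 3 and at 398, 410.3 and 395 CPM in verapamil replicates 1, 2 and 3. The verapamil libraries lay close together, with a coefficient of variation of 2.02% against 14.9% in controls, and control replicate 3 was the highest. Across genes as a whole, too, replicates differed more among the controls than among the verapamil libraries. Alpl fell from 674 ± 100.7 to 401 ± 8.12 CPM (SD, n = 3 per group). Its log2 fold change was -0.75, with an SE of 0.10 and an adjusted p of 0.00154.

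Phospho1, a phosphatase inside matrix vesicles that frees phosphate from phosphocholine and phosphoethanolamine (Entrez 237928, chromosome 11, 95824500 to 95832140), was at 36.8, 38.0 and 29.99 CPM in the controls. In the verapamil libraries it was at 12.9, 14.9 and 17.2 CPM, and the lowest control was well above the highest of them. The log2 fold change was -1.21 ± 0.13 SE (adjusted p = 5.71e-04), a level at 43.0% of control. In the GENCODE annotation, transcripts of Zfp652 on the same strand and of Abi3 on the opposite strand cover 89.6% and 84.2% of the exon bases of Phospho1, and 86.2% of its 50-base windows also occur in one of them. How reads were shared among the 3 genes is not given. Zfp652 was at 19.2 ± 3.43 CPM without and 17.9 ± 2.30 CPM with verapamil (adjusted p = 0.623), and Abi3 at 7.82 ± 1.05 and 7.97 ± 1.27 CPM (adjusted p = 0.923), so neither neighbour passed the test.

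Enpp1, the ectoenzyme that makes pyrophosphate from nucleotides (Entrez 18605, chromosome 10, 24637914 to 24712159), fell as well. Its levels were 74.6, 66.3 and 53.3 CPM in controls and 40.9, 39.7 and 41.2 CPM in verapamil libraries. Control replicate 3, highest for Alpl, was the lowest control here. The log2 fold change was -0.67 ± 0.11 SE (adjusted p = 0.00385).

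Within a library, the ratio of Alpl to Enpp1 counts does not depend on the scaling between libraries. It was 8.60, 8.96 and 14.8 in control replicates 1, 2 and 3 and 9.72, 10.3 and 9.58 in verapamil replicates 1, 2 and 3. The groups overlapped and the log2 difference was -0.080 (exact permutation test, two-sided, p = 1), and without control replicate 3 it was 0.17. The ratio of Alpl to Phospho1 was 17.4, 15.6 and 26.2 in controls and 30.8, 27.4 and 22.9 in verapamil libraries, again overlapping, with a log2 difference of 0.48 (exact permutation p = 0.2, 0.25 after Benjamini-Hochberg adjustment over the 5 ratios tested). With 3 libraries against 3 this test cannot give a p under 0.1.

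Of the sodium-phosphate cotransporters, Slc20a1 fell and Slc20a2 did not pass the test. Slc20a1, which encodes PiT1, the transporter best known in mineralising cells (Entrez 20515, chromosome 2, 129198773 to 129211615), was at 149, 144 and 114 CPM in controls and at 66.2, 64.7 and 66.3 CPM in verapamil libraries. It fell from 136 ± 19.0 to 65.7 ± 0.916 CPM (log2 fold change -1.04 ± 0.10 SE, adjusted p = 3.85e-04). Slc20a2, encoding PiT2 (Entrez 20516, chromosome 8, 22476700 to 22569616), was at 67.3, 52.5 and 84.5 CPM in controls and at 78.0, 84.7 and 75.8 CPM in verapamil libraries. Only control replicates 1 and 2 lay below the verapamil range, and the log2 fold change was 0.22 ± 0.16 SE (adjusted p = 0.327). Without control replicate 3 it was 0.40 (adjusted p = 0.0182), and without control replicate 2 it was 0.061 (adjusted p = 0.667).

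Their order by count was not the same in the libraries of the 2 groups, though the ratio did not pass the test. The Slc20a1 to Slc20a2 count ratio was 2.21, 2.75 and 1.35 in control replicates 1, 2 and 3 and 0.849, 0.764 and 0.875 in verapamil replicates 1, 2 and 3. The ratio was above 1 in every control and below 1 in every verapamil library, a log2 difference of -1.28 (exact permutation p = 0.1, the smallest this design allows, and 0.25 after adjustment). Per kilobase of transcript, Slc20a1 was at 40.9 ± 5.74 and Slc20a2 at 19.1 ± 4.50 CPM per kb in controls, against 19.8 ± 0.276 and 22.3 ± 1.30 CPM per kb with verapamil. The plot of ratios shows this pair beside the others.

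**Figure D2:**
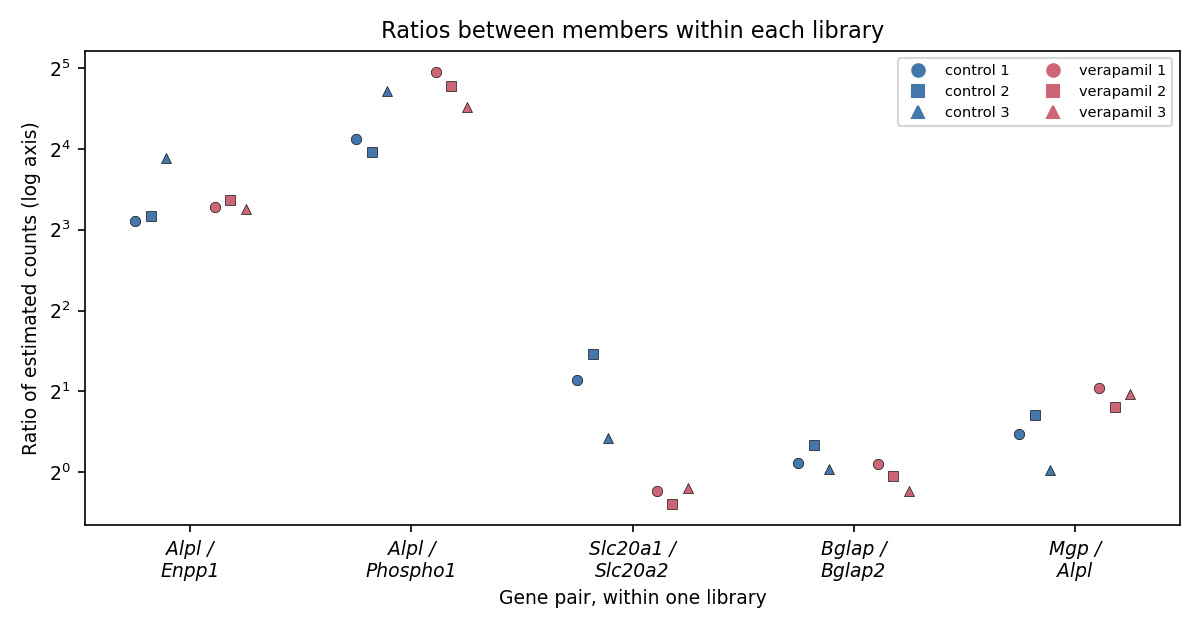
Ratio of the estimated counts of 2 genes within each library (log axis), for 5 pairs; blue points are control libraries and red points verapamil libraries, with the symbol giving the replicate number. For Slc20a1 to Slc20a2 the controls sit between 1.35 and 2.75 and the verapamil libraries between 0.764 and 0.875; for Alpl to Enpp1 the groups overlap.

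Phex, a membrane endopeptidase of osteoblasts and osteocytes whose loss causes X-linked hypophosphataemia (Entrez 18675, chromosome X, 157162075 to 157415286), was a low gene. It was at 6.72, 3.95 and 8.96 CPM in controls and at 2.50, 2.84 and 2.96 CPM in verapamil libraries. Control replicate 2 lay nearest to the verapamil libraries, and the control coefficient of variation, 38.3%, was the widest of the 10 genes in that group. The fall of Phex was -1.24 in log2, with an SE of 0.28 and an adjusted p of 0.0136. The call was lost without control replicate 1 (adjusted p = 0.0516) and without verapamil replicate 1 or 2 (adjusted p = 0.0608 and 0.0558).

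The osteocalcin genes Bglap (Entrez 12096, chromosome 3, 88383495 to 88384466) and Bglap2 (Entrez 12097, chromosome 3, 88377736 to 88378701) lie next to each other and are nearly the same. Their coding sequences are shown because this likeness limits how far the counts of the 2 genes can be separated. They are 288 bases each with the stop codon, from GENCODE transcripts on GRCm38, written 5′ to 3′ with the bases that differ in capitals.
Bglap: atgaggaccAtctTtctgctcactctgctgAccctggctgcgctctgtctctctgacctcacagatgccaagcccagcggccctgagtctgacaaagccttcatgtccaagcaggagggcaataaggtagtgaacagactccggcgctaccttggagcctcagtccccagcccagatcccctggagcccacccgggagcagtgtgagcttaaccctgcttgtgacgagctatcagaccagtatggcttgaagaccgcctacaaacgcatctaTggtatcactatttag
Bglap2: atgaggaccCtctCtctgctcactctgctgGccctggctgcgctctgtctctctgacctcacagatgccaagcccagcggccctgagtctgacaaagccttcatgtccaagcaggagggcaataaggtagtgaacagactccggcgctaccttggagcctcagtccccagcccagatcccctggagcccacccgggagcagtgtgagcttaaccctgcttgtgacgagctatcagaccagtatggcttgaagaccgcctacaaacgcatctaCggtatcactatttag
They differ at 4 bases, 98.6% identity, and the encoded proteins of 95 residues differ at 3 residues. Most of the bases that differ lie near the 5′ end of the coding sequence. Of all 50-base windows of the transcripts, 74.7% of those of Bglap and 88.2% of those of Bglap2 occur in another osteocalcin copy. The sources used here give neither the read length nor the treatment of reads with several matches.

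With that limit, both copies fell. Bglap was at 37.0, 35.3 and 36.1 CPM in controls and 17.1, 15.2 and 16.2 CPM in verapamil libraries, with a control coefficient of variation of 2.35%, the lowest of the 10 genes in that group. Its log2 fold change was -1.16 ± 0.07 SE (adjusted p = 7.89e-05). Bglap2 was at 34.3, 27.9 and 35.2 CPM in controls and 15.8, 15.7 and 19.1 CPM in verapamil libraries (log2 fold change -0.95 ± 0.11 SE, adjusted p = 8.78e-04). Summed, which does not depend on the split between these 2 genes, they were at 71.3, 63.2 and 71.4 CPM in controls and 32.9, 30.9 and 35.3 CPM in verapamil libraries. The log2 fold change of the sum was -1.06, with an SE of 0.076 and an adjusted p of 1.37e-04. Bglap took 50.6% to 55.8% of the sum in controls and 45.9% to 51.9% in verapamil libraries, and the Bglap to Bglap2 ratio overlapped between groups (log2 difference -0.22, exact permutation p = 0.2, adjusted p = 0.25). The more distant copy Bglap3, known from kidney, was at 0.910 ± 0.219 and 0.847 ± 0.148 CPM and did not pass (adjusted p = 0.805).

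Mgp, the inhibitor, had the highest level of the 10 genes per kilobase in both groups (Entrez 17313, chromosome 6, 136872435 to 136875823). It was at 893, 972 and 806 CPM in controls and at 819, 717 and 773 CPM in verapamil libraries. Verapamil replicate 1 lay above control replicate 3, so the groups overlapped. The means were 890.4 ± 82.7 and 769.6 ± 51.3 CPM, and the change of -0.21 ± 0.09 SE in log2 did not pass (adjusted p = 0.110). Without control replicate 3 it did pass (-0.28, adjusted p = 0.0254). Against Alpl, Mgp counts stood at ratios of 1.39, 1.64 and 1.02 in controls and 2.06, 1.75 and 1.96 in verapamil libraries. All verapamil ratios were above all control ratios, a log2 difference of 0.53 (exact permutation p = 0.1, adjusted p = 0.25).

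Ifitm5, which encodes the osteoblast membrane protein BRIL that is mutated in a form of brittle bone disease (Entrez 73835, chromosome 7, 140948958 to 140950243), had the lowest level and the largest fall of the 10. It rested on 16, 14 and 19 counts in controls and 3.9, 5 and 2 counts in verapamil libraries. That is 0.751, 0.748 and 0.873 CPM against 0.213, 0.226 and 0.0898 CPM, with no overlap. The log2 fold change was -2.15 ± 0.39 SE (adjusted p = 0.00474), lower than that of all but 0.419% of the genes tested. The same-strand gene model Gm45717 shares 25.3% of the 50-base windows of Ifitm5. Its relatives Ifitm2 and Ifitm3, antiviral membrane proteins with broad expression, were far higher and did not pass, at 186 ± 5.52 and 198 ± 8.75 CPM for Ifitm2 (adjusted p = 0.262) and 393 ± 68.2 and 411 ± 27.5 CPM for Ifitm3 (adjusted p = 0.714). Ifitm3 did pass without control replicate 2 (log2 fold change 0.21, adjusted p = 0.0305).

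**Figure D3:**
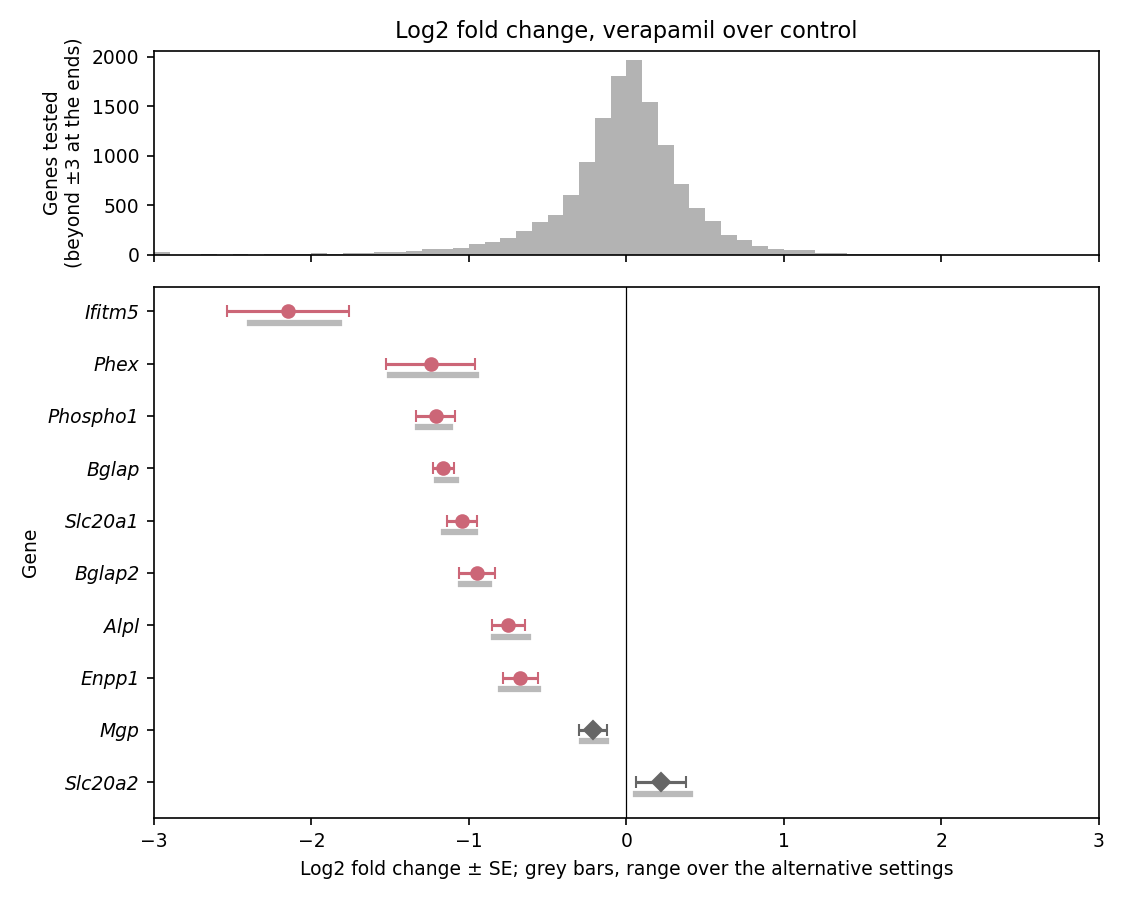
Upper panel, number of the tested genes at each log2 fold change of verapamil over control; lower panel, log2 fold change ± SE of the 10 genes (red circles, past the test; grey diamonds, not past it), with grey bars for the range over the alternative settings. The 8 red genes run from -0.67 (Enpp1) to -2.15 (Ifitm5), while Mgp and Slc20a2 lie at -0.21 and 0.22.

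Within the controls the 10 genes did not move as one. Control replicate 3 was the highest control for Alpl, Slc20a2, Phex, Bglap2 and Ifitm5, and the lowest for Phospho1, Enpp1, Slc20a1 and Mgp. Bglap differed little among the controls. Without control replicate 2, the library farthest out, the same 8 genes passed, with log2 fold changes from -0.66 (Enpp1) to -2.19 (Ifitm5). In CPM per kb, a level, the order in controls was Mgp (1443 ± 134), Alpl (267 ± 39.9), Bglap (82.2 ± 1.93), Bglap2 (69.0 ± 8.42), Slc20a1 (40.9 ± 5.74), Slc20a2 (19.1 ± 4.50), Phospho1 (18.3 ± 2.26), Enpp1 (9.55 ± 1.58), Phex (1.04 ± 0.40) and Ifitm5 (1.03 ± 0.0929). Slc20a2 and Phospho1 differed by less than their SD, as did Phex and Ifitm5. The order in verapamil libraries was the same except that Slc20a2 stood above Slc20a1, and Bglap (36.8 ± 2.07) and Bglap2 (35.8 ± 4.10) then differed by less than their SD.

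Other genes of the same chemistry were read from lists, to be set beside the 16.3% lower and 15.4% higher among all genes tested. For pyrophosphate and phosphate supply, 5 of 7 tested genes fell and 2 did not pass, with a median log2 fold change of -0.66 (all genes, 0.0077). Ank, the pyrophosphate exporter, fell from 163 ± 21.2 to 70.5 ± 1.25 CPM (log2 fold change -1.21 ± 0.09 SE). Nt5e, the ectonucleotidase CD73 that splits AMP to adenosine and phosphate, fell from 38.2 ± 5.12 to 13.1 ± 0.302 CPM (-1.54 ± 0.10 SE). Smpd3, the neutral sphingomyelinase needed for bone mineral, fell from 56.6 ± 5.57 to 22.5 ± 1.62 CPM (-1.33 ± 0.09 SE), and the nucleoside transporter gene Slc29a1 fell by 0.66. Entpd5 (-0.073) and Enpp3 (-0.64) did not pass (adjusted p = 0.418 and 0.198).

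Among genes of phosphate export, sensing and hormonal control, 5 of 8 tested genes fell and 3 did not pass, with a median of -0.56. Dmp1, a matrix protein of osteocytes whose loss raises FGF23, had the largest fall of the list (79.7 ± 20.8 to 3.65 ± 0.861 CPM, -4.43 ± 0.27 SE). Galnt3, whose enzyme protects FGF23 from cleavage, fell from 12.6 ± 1.86 to 3.28 ± 0.185 CPM (-1.94 ± 0.14 SE). The FGF receptor gene Fgfr1 (-0.88) and the parathyroid hormone receptor gene Pth1r (-0.76) fell too. The phosphate exporter gene Xpr1 was at 77.1 ± 8.71 and 81.9 ± 1.04 CPM (adjusted p = 0.453), and the vitamin D receptor gene Vdr at 36.0 ± 9.48 and 29.3 ± 1.40 CPM (log2 fold change -0.30, adjusted p = 0.236). Vdr did pass without control replicate 2 (-0.47, adjusted p = 0.0139) and was at -0.084 without control replicate 3. Fgf23 itself was at 0.0794 ± 0.0507 CPM without and 0.0299 ± 0.0519 CPM with verapamil, too low to be tested.

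The genes for vitamin K carboxylation and further calcification inhibitors had 2 of 9 tested genes lower, 7 not past the test and a median of -0.12. For this list and the annexins below, the shares over all genes tested were 16.3% lower and 15.4% higher. Ggcx, the carboxylase that modifies osteocalcin and matrix Gla protein, went from 44.9 ± 2.01 down to 36.8 ± 0.671 CPM (-0.29 ± 0.06 SE, adjusted p = 0.00845), and the proprotein convertase gene Furin fell by 0.65. Spp1, encoding osteopontin (0.25, adjusted p = 0.217), and Gas6 (0.22, adjusted p = 0.281) did not pass. Gas6 did pass without control replicate 3 (0.39, adjusted p = 0.0147) and was at 0.086 without control replicate 2. Of 7 annexins, calcium-binding proteins found in matrix vesicles, 1 rose and 6 did not pass, with a median of 0.085. The riser was Anxa4 (174 ± 17.4 to 219 ± 5.95 CPM, 0.33 ± 0.08 SE, adjusted p = 0.0137). It did not pass without control replicate 1 (adjusted p = 0.0540) or verapamil replicate 1 or 2 (adjusted p = 0.0656 and 0.0593). Anxa2 (-0.59, adjusted p = 0.0535) and Anxa1 (0.12) did not pass, and Anxa2 did when any control replicate but the first was left out (adjusted p = 0.0391 without replicate 2 and 0.00462 without replicate 3).

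Alkaline phosphatase binds zinc and is held on the membrane by a GPI anchor. Of 13 genes for zinc loading and GPI anchoring, 2 fell, 1 rose and 10 did not pass, with a median of -0.11. Of all genes tested, 16.3% were lower and 15.4% higher, so this list did not stand out by its counts. Both zinc transporter genes of the Slc39 family in the list fell. Slc39a14 went from 104 ± 7.14 to 61.8 ± 4.57 CPM (-0.76 ± 0.08 SE, adjusted p = 4.40e-04) and Slc39a13 from 90.8 ± 18.9 to 57.2 ± 4.10 CPM (-0.67 ± 0.14 SE, adjusted p = 0.0133). The latter was at adjusted p = 0.0535 without verapamil replicate 2. The zinc transporters that load the enzyme in the secretory pathway, Slc30a5 (-0.039, adjusted p = 0.719) and Slc30a7 (-0.11, adjusted p = 0.184), did not pass, but Slc30a7 did without control replicate 2 (-0.17, adjusted p = 0.0236). Pgap2, a GPI-processing gene, rose by 0.19 (adjusted p = 0.0439), but it did not pass when any 1 library was left out (adjusted p = 0.0582 to 0.157).

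Gene relatives of the 10 were compared to see whether whole families moved. Of 14 tested, 3 fell, 1 rose and 10 did not pass, with a median of 0.015. Among all genes tested, 16.3% were lower and 15.4% higher, so these counts do not set the relatives apart. Enpp6 (1.28 ± 0.315 to 0.529 ± 0.138 CPM, -1.25 ± 0.31 SE), Ifitm10 (3.06 ± 1.21 to 0.793 ± 0.317 CPM, -1.94 ± 0.40 SE) and Ece1, from the endopeptidase family of Phex (-0.47 ± 0.08 SE), fell. Enpp6 did not pass without verapamil replicate 1 or 2 (adjusted p = 0.0714 and 0.0585). Ifitm6 rose by 0.73 (adjusted p = 0.0293). It passed without control replicate 2 (adjusted p = 0.0387), but not when any other library was left out (adjusted p = 0.0559 to 0.117). Over the same libraries, 11 of 15 macrophage markers rose and 5 of 7 osteoblast markers fell, and their part in the counts of these lists was not tested.

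**Figure D4:**
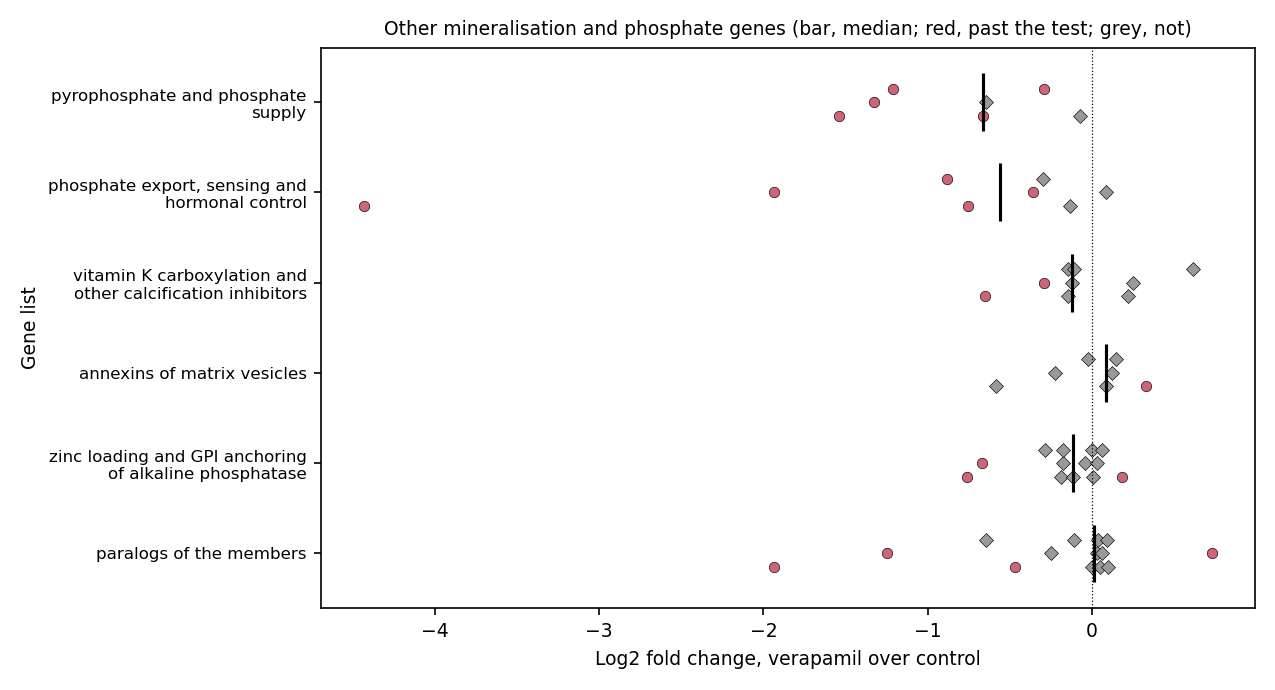
Log2 fold change of verapamil over control for each tested gene of 6 lists (red circles, past the test; grey diamonds, not past it; black bars, list medians). The lists for pyrophosphate and phosphate supply and for phosphate hormones have medians of -0.66 and -0.56, while the other 4 lie between -0.12 and 0.085.

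The start-site regions of the genes were read from RefSeq promoters on GRCm38.p6, where 7 of the 10 genes matched with 9 windows. Bglap2, Mgp and Slc20a2 had no match. In the 250 bases before each start, letters searched were AACCACA, bound by RUNX factors such as the osteoblast regulator Runx2, TAATTA of homeodomain factors and GGGCGG of GC boxes, on both strands, and TATAAA on the gene's strand. AACCACA occurred in 1 of the 9 windows, that of the first Slc20a1 start, and in 4.40% of all 32851 windows. TATAAA occurred in 1 of the 9 (Bglap) and in 7.59% of all, and TAATTA in none of the 9 and 4.84% of all. GGGCGG occurred in 6 of the 9 and in 32.7% of all. The 2 windows below are shown because they hold a RUNX or TATA match, with those letters in capitals. Only the exact letters were searched, so a window without AACCACA may still hold another form of a RUNX site.
Slc20a1, chr2:129198523-129198772, plus strand: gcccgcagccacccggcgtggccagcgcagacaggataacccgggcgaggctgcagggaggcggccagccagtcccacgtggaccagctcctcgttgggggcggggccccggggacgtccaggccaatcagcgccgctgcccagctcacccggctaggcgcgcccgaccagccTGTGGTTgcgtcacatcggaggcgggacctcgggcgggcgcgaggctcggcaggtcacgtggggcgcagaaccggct
Bglap, chr3:88384467-88384716, minus strand: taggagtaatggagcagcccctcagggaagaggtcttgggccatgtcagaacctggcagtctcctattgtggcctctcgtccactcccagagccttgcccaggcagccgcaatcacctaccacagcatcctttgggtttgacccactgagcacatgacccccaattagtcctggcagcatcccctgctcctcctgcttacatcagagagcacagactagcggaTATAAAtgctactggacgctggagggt
The Slc20a1 window is 75.2% G and C and holds the RUNX letters on the opposite strand, starting 77 bases before the start. The Bglap window is 56.4% G and C and holds TATAAA from 27 bases before the start. A match describes letters only and is not a measured binding site.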

How the data were processed

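RNA of 6 osteoblast samples (3 control, 3 verapamil) was sequenced with a SMARTER kit from 1.3 µg of total RNA, per the labels' protocols. The authors deposited estimated counts, called read counts in the header, with no scaling for depth or length, and 32.3% of values were whole. The builds GRCm38 and mm10 are from the submitters' processing notes, and the sources used here name no aligner, counter, annotation or strand setting. Counting error is smallest for the deepest genes, and library totals of 18.2 M to 21.7 M leave Ifitm5 on under 20 counts per library.

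Counts were rounded, filtered with filterByExpr (minimum count 10, minimum total 15, 4125 of 17491 genes removed) and tested with edgeR 4.0.16 in R 4.3.3 (TMM factors, robust quasi-likelihood fit, Benjamini-Hochberg adjustment over 13366 genes, called at adjusted p under 0.05). All 10 members passed the filter. SE was taken as the size of the log2 fold change divided by the root of the F statistic. Ratios used counts plus 0.5 and an exact two-sided permutation test. Length is that of the longest coding GENCODE transcript. The script was tested on simulated counts in 10 draws. It found 69.56% of the planted shifts of size 1.5 and 86.15% of those of size 2. False positives made up 8.203% of its calls, more than the 0.05 that the adjustment aims at. Shifts were planted in far fewer genes than were called in the data, so this share does not carry over to the reported calls. Counts of replicates differed beyond sampling noise, and more so in controls. The chi-square per degree of freedom was 12.6 to 50.1 between controls and 3.59 to 6.23 between verapamil libraries.

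The members and lists were chosen with earlier results of these data known. Named were all 10 members, and from each list up to 4 genes past the test with the largest change and up to 2 not past it with the highest mean. Fgf23, Bglap3, Zfp652 and Abi3 were named after their values were seen. Alternatives were other scaling (DESeq2 size factors, upper quartile, totals alone), other filters, DESeq2 1.42.0, limma-voom of limma 3.58.1 with and without a weight per library, counts not rounded, a replicate block, a threshold of 0.01, an offset of 5 counts, and each library left out. Of the list genes, 14 had no row in the table by symbol and were not analysed here.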

Additional observations from a re-analysis of the deposited data

How the results depend on the processing

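The count of members past the test was 8 under every other scaling (library totals alone, upper quartile, DESeq2 size factors), without the low-count filter, by DESeq2, by limma-voom and without rounding. It was 9 by limma-voom with a weight per library, where Mgp passed (adjusted p = 0.0444), 7 at an adjusted p under 0.01, and 6 with at least 5 CPM in 3 libraries, where 8 members were tested. It ran from 7 to 10 with 1 library left out. The 10 was reached without control replicate 3, where 9 members fell and 1, Slc20a2, rose. Alpl, Phospho1, Enpp1, Slc20a1, Bglap, Bglap2 and Ifitm5 stayed past the test under every alternative that tested them. The summed osteocalcin counts passed under every alternative (-1.12 to -0.98).

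Of all genes tested, 1969 were called at an adjusted p under 0.01, and 2236 to 5042 with 1 library left out (2671 without control replicate 1, 2249, 2236 and 2625 without verapamil replicates 1, 2 and 3). The log2 difference of the Alpl to Enpp1 ratio ran from -0.22 to 0.17 with 1 library left out, and it changed sign without control replicate 3. Signs of genes not past the reported test also changed: Entpd5 was at 0.0064 and Slc30a5 at 0.037 with library totals alone. With 1 library left out, Slc30a5 ran from -0.12 to 0.021, Ifitm3 from -0.022 to 0.21 and Xpr1 from -0.0081 to 0.14, and these signs changed without control replicate 3, 3 and 2 in that order. Ifitm3 passed at the 0.21 end (without control replicate 2, adjusted p = 0.0305). By limma-voom with a weight per library, Vdr (adjusted p = 0.0449), Slc30a7 (adjusted p = 0.0229) and Anxa2 (adjusted p = 0.0168) passed as well. Anxa2 also passed by DESeq2 (adjusted p = 0.00301) and with at least 5 CPM in 3 libraries (adjusted p = 0.0490). Ifitm6 (adjusted p = 0.108) and Pgap2 (adjusted p = 0.132) did not pass by DESeq2, nor did Pgap2 without the low-count filter (adjusted p = 0.0633). Over 40 named genes and their alternatives, 590 of 634 values kept direction and side of the threshold.

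The series' design text speaks of 3 pairs, and the labels do not say what would pair the libraries. Same-numbered libraries did not deviate together (r = 0.0089, -0.17 and -0.13 across genes for replicates 1, 2 and 3), so the data gave no hint of pairing by number. With the replicate block, 2953 genes and 8 members were called, and Pgap2 (adjusted p = 0.119) and Ifitm6 (adjusted p = 0.0791) were not. The mean of the within-number differences equals the log2 difference of each ratio. Depth limits the precision of Ifitm5, with under 20 counts in each library.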
